A study of Mus musculus with 9 samples.

Results

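The genes described here are 44 genes of DNA replication, its checkpoint and mitosis, chosen by name and matched by exact symbol among the 24356 genes listed for each library. All 44 were found. They were split into 16 replication genes, which copy the genome or supply and guard that copying, and 28 mitosis genes, which condense, sort and separate the copied chromosomes. Their levels were compared in brown adipose tissue of mice labelled GHRH-KO, in which the gene for growth hormone releasing hormone was disrupted, a model of growth hormone deficiency, and of WT littermates from the same colony, all on a mixed C57BL6 and 129SV background and fed standard chow, with no age in the labels. There were 9 RNA-seq libraries from 9 animals: 3 WT females, 2 WT males, 2 KO females and 2 KO males. The 2 males labelled KO are called KO male 1 and KO male 2 below.

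Cells that divide switch these genes on in order. Late in G1 the transcription factors of the E2F family release the genes of the replication machinery, among them the MCM helicase that opens the double helix, the clamp Pcna that holds the polymerases on DNA, and the enzymes that make deoxynucleotides. In G2 the mitotic genes follow, driven by the MuvB complex with B-Myb and FoxM1, and their products (Cdk1 with its cyclins, the Aurora and Polo kinases, the kinetochore and the spindle motors) carry the cell through division. Resting cells hold both sets down through the DREAM complex, which sits on E2F sites and on a promoter element named the cell cycle homology region (CHR). Mature brown adipocytes do not divide, and in adult brown fat the dividing cells are mostly progenitors, endothelial cells and blood cells.

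The 2 sets held different promoter letters, a feature that the choice of genes did not use. RefSeq promoter windows (GRCm38.p6, 250 bases before to 50 after the start) were held for 37 of the 44 genes and searched on both strands, an exact match being required. The CHR letters TTTGAA stood in 17 of 23 mitosis promoters (73.9%) and in 1 of 14 replication promoters (7.14%), against 17.9% of all 32851 promoters. The E2F letters (TTTGGCGC, TTTCGCGC, TTTCCCGC or TTTGGCGG) stood in 7 of 14 replication promoters (50%) and in 1 of 23 mitosis promoters (4.35%), against 2.37% of all. The CCAAT box letters stood in 19 of 23 mitosis promoters (82.6%) and 9 of 14 replication promoters (64.3%), against 37.4%. A match of letters is a description and not a bound site. 4 stretches before the RefSeq start are shown, 2 of each set, as the members with the highest mean level that held the letters of their set in a stretch with at most 10 bases inside an annotated exon of the same gene. The last 9 bases shown for Cdc20 lie in its annotated first exon, and the stretch of Uhrf1 lies in an intron of a longer annotated transcript. Capitals mark every CHR, CCAAT or E2F match on either strand, and each stretch ends at the last base before the RefSeq start.
Cdc20 (chr4:118437344-118437493, minus strand): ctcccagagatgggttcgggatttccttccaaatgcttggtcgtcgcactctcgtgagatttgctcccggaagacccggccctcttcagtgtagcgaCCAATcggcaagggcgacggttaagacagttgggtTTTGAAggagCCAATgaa
Ccnb2 (chr9:70421555-70421731, minus strand): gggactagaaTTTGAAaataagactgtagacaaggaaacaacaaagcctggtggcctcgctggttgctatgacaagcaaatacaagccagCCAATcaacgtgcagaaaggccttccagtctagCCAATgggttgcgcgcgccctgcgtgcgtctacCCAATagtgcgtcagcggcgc
Mcm6 (chr1:128359706-128359855, minus strand): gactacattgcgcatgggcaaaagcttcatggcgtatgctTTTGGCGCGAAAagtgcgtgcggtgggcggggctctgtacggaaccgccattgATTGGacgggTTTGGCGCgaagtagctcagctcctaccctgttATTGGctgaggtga
Uhrf1 (chr17:56304118-56304312, plus strand): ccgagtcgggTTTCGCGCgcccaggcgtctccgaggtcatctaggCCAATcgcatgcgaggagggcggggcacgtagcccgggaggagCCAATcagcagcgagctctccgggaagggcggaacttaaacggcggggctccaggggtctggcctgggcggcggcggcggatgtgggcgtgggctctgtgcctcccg

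The values were FPKM (fragments per transcript length and sequencing depth), with no read counts beside them. The spacing of low values implied 22.9 to 28.7 M fragments (M for mega) per library, with 73.6% to 76.9% of the low values of 6118 single-transcript genes falling within 0.1 of a whole fragment. The targeted gene Ghrh went against the labels: it was listed at 0 in all 5 WT libraries and read 0.846, 0.233, 0.799 and 0.470 FPKM in KO female 1, KO female 2, KO male 1 and KO male 2. Every direction between KO and WT given here is therefore between libraries labelled KO and WT. KO male 1 stood apart from the rest in Spearman rank correlations of FPKM over the genes above 0 in every library. These were 0.924 to 0.934 with the other 8 libraries, which correlated at 0.958 to 0.991 among themselves. Brown adipocyte markers were high as a sum in all 9 libraries, their 10 genes summing to 6017 to 8274 FPKM. KO male 1 lay within that range at 6394 FPKM, though 4 of the 10 genes were lowest there and 0 were highest. Among these, Zic1 read 0.442 FPKM in KO male 1 and 1.22 to 2.51 FPKM elsewhere.

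Outside KO male 1, replication genes were present at low to moderate levels and mitosis genes were close to the detection limit. The median FPKM over the other 8 libraries was 0.777 for the middle replication gene and 0.0964 for the middle mitosis gene. On this per-length scale 7 of 16 replication genes reached a median of 1 FPKM, and 1 of 28 mitosis genes did, while 27 of the 28 stayed under 0.5 FPKM and 14 under 0.1 FPKM. The highest medians were those of the clamp Pcna (19.9 FPKM), the ribonucleotide reductase subunit Rrm1 (4.84 FPKM), the helicase subunit Mcm7 (4.70 FPKM) and the centromeric histone Cenpa (3.38 FPKM). The phosphatase Cdc25c and the spindle checkpoint kinase Ttk had a median of 0. Among members with a single annotated transcript, the median level stood for an estimated 54.5 fragments for the middle of 9 replication genes and 8.99 fragments for the middle of 13 mitosis genes, 8 of which were under 10 fragments. The counting error of single mitosis genes is large at such depths. Over 10% of the 50-base stretches of Mcm7, Pcna, Uhrf1, Ccnb1 and Cdc20 also occur in transcripts of other genes, and 9 of the 44 members, Mcm7, Ccna2, Nusap1 and Foxm1 among them, overlap another gene, so their values are less certain. In bulk tissue, fewer dividing cells and less of the RNA per dividing cell cannot be told apart.

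**Figure D1:**
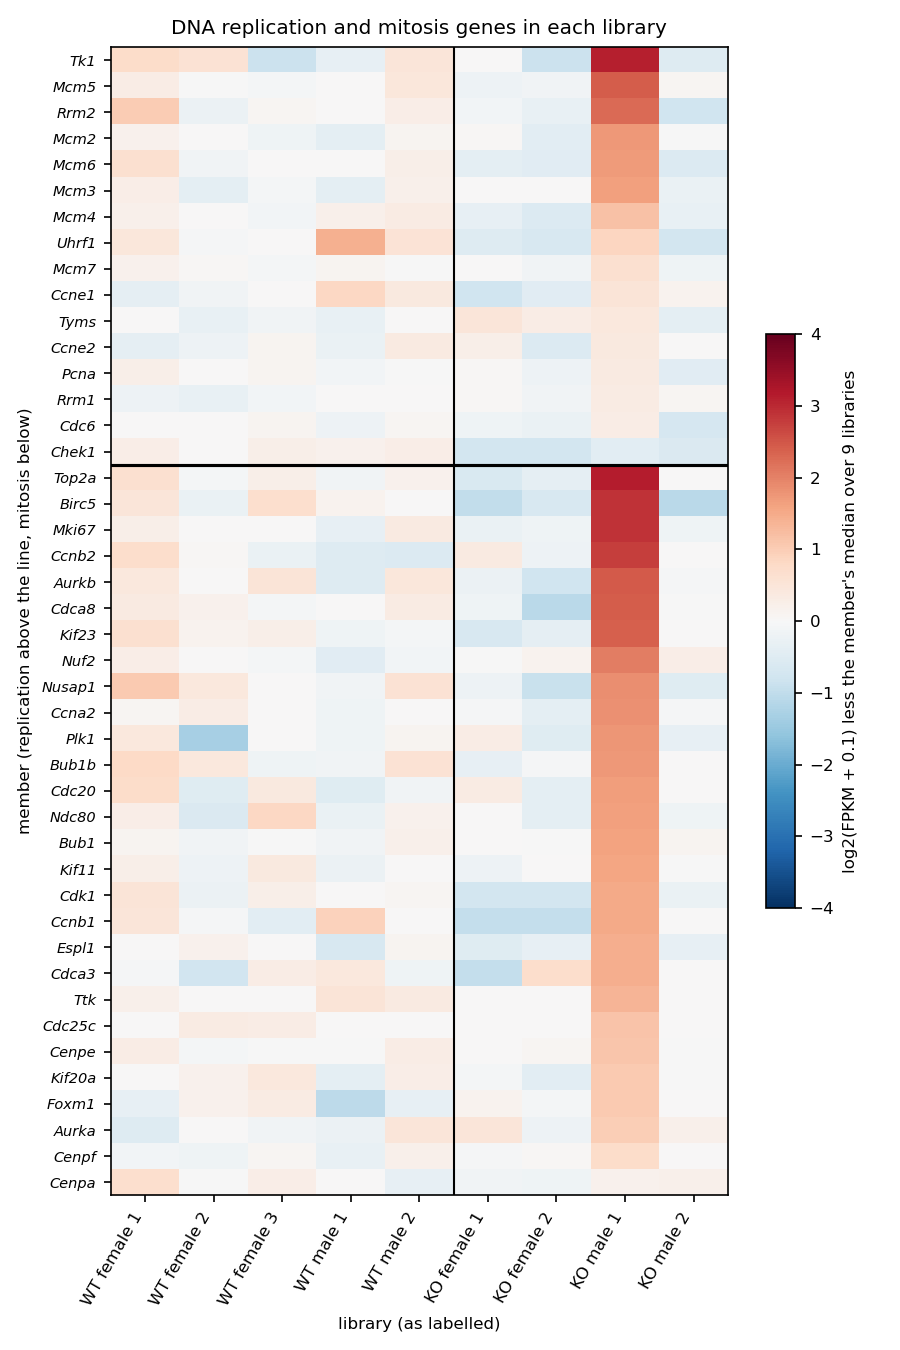
Heat map of the 44 members (rows, replication genes above the thick line and mitosis genes below) in the 9 libraries (columns). Colour gives log2(FPKM + 0.1) less the member's median over the 9 libraries, and KO male 1 is the highest library for 39 of the 44.

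KO male 1 held more RNA of nearly every member than any other library. It was the highest of the 9 libraries for 39 of 44 members, 12 of 16 replication genes and 27 of 28 mitosis genes, whereas it was the highest for 27.8% of the 18933 genes above 0 in at least 1 library. The 5 exceptions were Chek1, Cenpa, Tyms, Uhrf1 and Ccne1. Against the median of the other 8 libraries, the middle mitosis gene was 5.88-fold higher and the middle replication gene 1.78-fold higher, beside 1.05-fold for the 16608 genes with a median above 0. The level was at least 2-fold higher for 25 of the 26 mitosis genes with such a median and for 7 of 16 replication genes, beside 17.1% of all those genes. These are values of 1 animal, with no test.

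The proliferation antigen Mki67 shows the pattern of the mitosis genes. It read 0.0807, 0.0571 and 0.0541 FPKM in the WT females, 0.0217 and 0.0960 in the WT males, 0.0295 and 0.0374 in the KO females, 1.04 in KO male 1 and 0.0372 in KO male 2. The other 8 libraries held an estimated 6.0 to 27.2 fragments of Mki67 and KO male 1 held 294. Top2a, the topoisomerase that untangles sister chromatids, read 0.198, 0.0775 and 0.121 FPKM in the WT females, 0.0709 and 0.112 in the WT males, 0.0248 and 0.0489 in the KO females, 1.57 in KO male 1 and 0.0893 in KO male 2. For both genes KO male 1 lay far above a range in which WT and KO overlapped.

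The mitotic genes were higher in KO male 1 across their roles. The A and B cyclins, which activate Cdk1, summed to 3.65 FPKM in KO male 1 and to 0.389 to 0.907 FPKM in the other 8 libraries. The chromosomal passenger complex (Aurkb, Birc5 and Cdca8), which corrects faulty spindle attachment, summed to 4.46 FPKM against 0.129 to 0.725 FPKM. The spindle motors Kif11, Kif20a and Kif23 summed to 1.77 FPKM against 0.232 to 0.528 FPKM, and the spindle checkpoint genes Bub1, Bub1b and Ttk to 1.35 FPKM against 0.165 to 0.491 FPKM. Kinetochore and centromere genes were the exception, at 5.18 FPKM against 2.98 to 5.79 FPKM, since Cenpa made up most of that sum and was not higher in KO male 1. Their other members, the outer kinetochore genes Ndc80, Nuf2, Cenpe and Cenpf, were 2.87-fold to 12.7-fold above the median of the other libraries.

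Replication genes were higher in KO male 1 unevenly. The 6 MCM helicase subunits summed to 27.0 FPKM there and to 8.80 to 12.999 FPKM elsewhere, with ratios to the median of the other 8 libraries from 1.59 for Mcm7 to 6.16 for Mcm5. Of the deoxynucleotide enzymes, thymidine kinase Tk1 (17.0-fold) and the S phase subunit of ribonucleotide reductase, Rrm2 (6.34-fold), were far higher, while thymidylate synthase Tyms (1.48-fold) and Rrm1 (1.29-fold) were not. Pcna (1.27-fold), the origin licensing factor Cdc6 (1.43-fold) and the E cyclins Ccne1 (1.56-fold) and Ccne2 (1.67-fold), which start S phase, were little higher. Chek1, the replication checkpoint kinase, was at 0.452 of the median of the other 8 libraries.

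Markers of blood cells moved with the members in KO male 1. The 12 T cell genes summed to 263 FPKM there and to 2.35 to 7.73 FPKM in the other 8 libraries, and all 12 were highest in KO male 1. The 10 B cell genes summed to 105 FPKM against 0.588 to 1.76 FPKM, again with all 10 highest there, and the 10 macrophage genes to 621 FPKM against 51.0 to 192 FPKM, with 9 highest. A list of 7 thymocyte genes, of which Tcf7 and Themis are also made by mature T cells, summed to 35.7 FPKM against 0.662 to 1.31 FPKM, with 5 of the 7 highest there. Tcf7 made up most of that sum (33.4 FPKM), while Dntt read 0.351 FPKM in KO male 1 and at most 0.0188 FPKM elsewhere, Rag1 read 0.0162 FPKM there and was at 0 elsewhere, and Ptcra was at 0 there and at most 0.103 FPKM elsewhere. The 5 germinal centre B cell genes summed to 2.86 FPKM against 0.771 to 1.70 FPKM. The 8 granulocyte and marrow genes, at 19.4 FPKM, lay within the range of the other libraries (0.384 to 24.99 FPKM), and the erythroid genes were lowest there, at 225 FPKM against 238 to 885 FPKM. Skeletal muscle genes were also highest in KO male 1, at 10028 FPKM against 359 to 5234 FPKM, and the 6 general adipocyte genes lowest, at 10526 FPKM against 12856 to 17887 FPKM. The part of these cells in the members' levels was not tested.

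**Figure D2:**
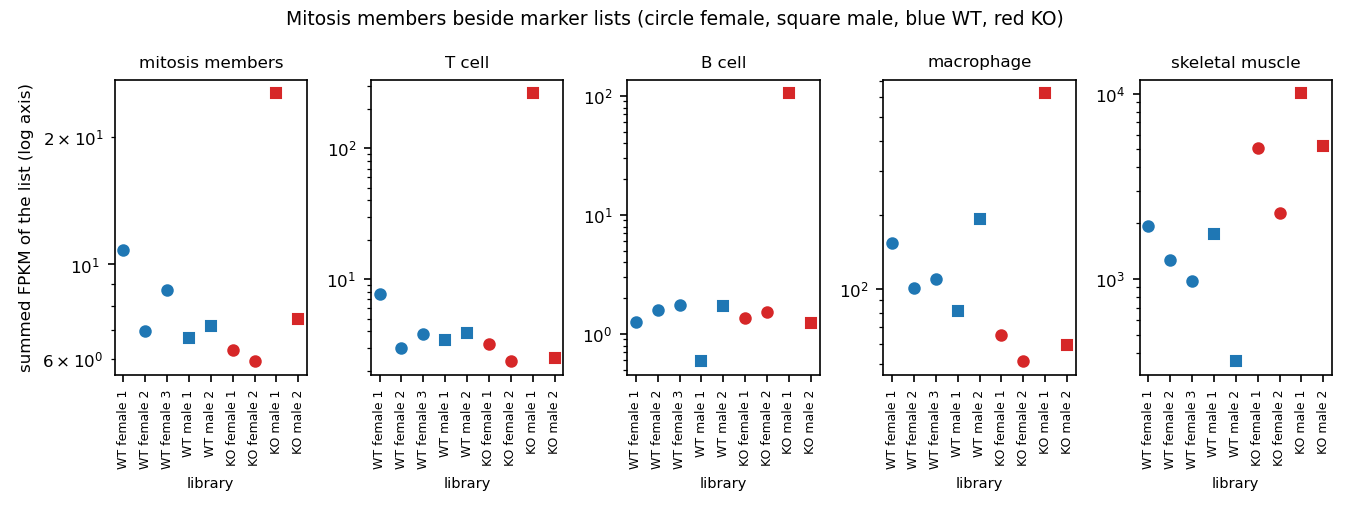
Summed FPKM (log axes) of the 28 mitosis genes and of 4 marker lists in the 9 libraries, 1 point per library (circles females, squares males, blue WT, red KO). KO male 1 is the highest library in all 5 panels, at 25.3 FPKM for the mitosis genes against 5.91 to 10.8 FPKM elsewhere.

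The comparison set libraries labelled KO against those labelled WT. It was made with limma on log2 FPKM of the 14675 genes above 0 in every library, with a mean for each genotype and sex group, KO minus WT averaged over the sexes, and Benjamini-Hochberg adjustment over all genes tested. 39 members entered, all 16 replication genes and 23 of 28 mitosis genes. Bub1, Plk1, Aurkb, Cdc25c and Ttk were listed at 0 in at least 1 library and did not. Each library came from a separate animal, and p-values measure the spread between these few animals.

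With all 9 libraries, 1 member was lower in KO, where 2.17% of all genes were, and 0 were higher in KO, where 1.43% of all genes were. At an unadjusted p under 0.05, 1 member was higher and 2 were lower, beside 5.99% and 14.2% of all genes. An ordinary linear model called 0 higher and 1 lower at an unadjusted p under 0.01, beside 2.06% and 5.49% of all genes. The median log2 difference was 0.01 for the replication genes and 0.33 for the mitosis genes, beside -0.07 for all genes. All KO libraries lay below all WT libraries for 1 member, beside 6.04% of all genes, and above them for 0, beside 3.03%. The spread of KO male 1 from the other KO libraries entered every one of these differences: for Mki67, KO stood at 0.287 ± 0.504 FPKM (SD, n = 4) and WT at 0.0619 ± 0.0284 FPKM (SD, n = 5).

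The member that fell was Chek1 (chr9:36708482-36727065, minus strand, GRCm38), the kinase that halts the cycle when replication forks stall. It read 0.148, 0.108 and 0.142 FPKM in the WT females, 0.133 and 0.152 in the WT males, 0.0259 and 0.0255 in the KO females and 0.0544 and 0.0381 in the KO males. All 4 KO libraries lay below all 5 WT libraries, KO male 1 included, as they did for 6.04% of all genes. The difference was -2.001 ± 0.34 on the log2 scale (SE, limma adjusted p = 0.0347). The exact two-sided permutation test of log2(FPKM + 0.1) gave p = 0.00794, the smallest that 4 against 5 libraries allow. No adjustment over the 44 members was computed. Separation of the groups by itself puts this p at or near its smallest value, so it restates the separation and adds no further support. The levels are low: read against the longest of its 3 transcripts, the KO libraries held an estimated 2.2 to 5.6 fragments and the WT libraries 8.9 to 15.8. The limma call was lost without any 1 of 6 libraries, with an adjusted p of 0.0815 without WT female 1, 0.0869 without WT female 2, 0.0803 without WT female 3, 0.101 without WT male 2, 0.135 without KO female 1 and 0.101 without KO female 2, while the difference stayed between -1.87 and -2.13 without each of the 9 in turn.

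**Figure D3:**
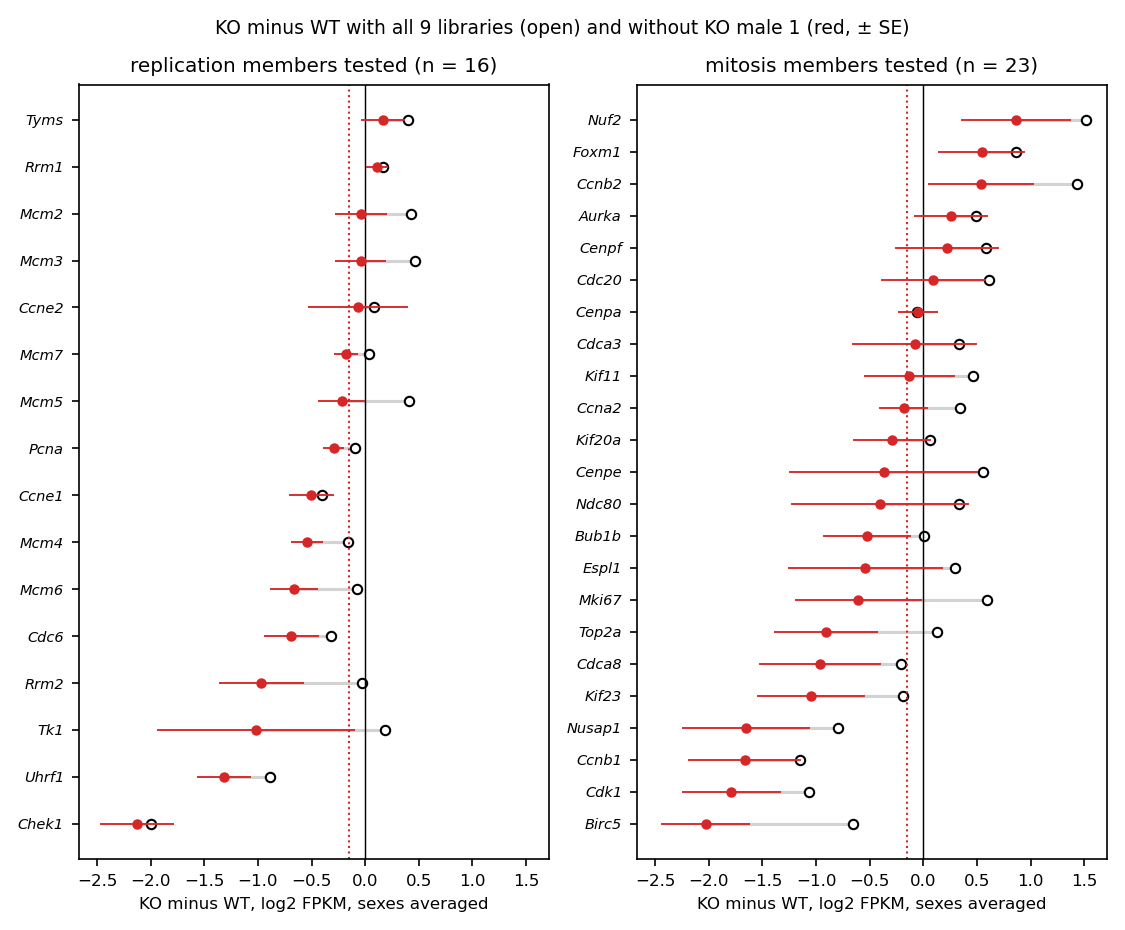
KO minus WT in log2 FPKM, sexes averaged, for the 16 replication (left) and 23 mitosis genes tested (right), with all 9 libraries (open circles) and without KO male 1 (red, bars ± SE). The dotted line is the median of all genes without KO male 1 (-0.15), and 31 of the 39 red points lie below 0.

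Without KO male 1, most members had a lower mean in KO, as most genes did. Of the 39 members, 31 were lower in KO (79.5%), beside 72.5% of the 14713 genes tested, and the median difference was -0.40 for replication genes and -0.37 for mitosis genes, beside -0.15 for all genes. 2 members were lower at an adjusted p under 0.05, both of them replication genes, where 2.22% of all genes were, and 0 were higher, where 0.754% were. At an unadjusted p under 0.05, 12 members were lower (8 replication and 4 mitosis genes), where 20.9% of all genes were, and 0 were higher, where 5.52% were. The KO libraries lay below all WT libraries for 7 members (4 replication and 3 mitosis genes), beside 13.5% of all genes, and above them for 0, beside 4.00%. With each library centred on its median, all genes stood at 0.02, 25 of 39 members were lower, the median was -0.23 for replication and -0.20 for mitosis genes, and 1 member, Chek1, was called. This centring also moved the calls among all genes from 111 higher and 327 lower to 146 higher and 124 lower. The 1 KO male left in this fit was taken to vary like the other groups.

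Chek1 was one of the 2, at -2.13 ± 0.34 (log2, SE, limma adjusted p = 0.0389). The other was Uhrf1 (chr17:56303321-56323486, plus strand, GRCm38), which brings the maintenance methyltransferase to newly copied DNA and whose promoter is shown above. It read 1.89, 1.32 and 1.36 FPKM in the WT females, 3.80 and 2.05 in the WT males, 0.933 and 0.833 in the KO females, 2.54 in KO male 1 and 0.771 in KO male 2. The 3 other KO libraries lay below all WT libraries, and KO male 1 lay above all but WT male 1. The difference was -0.88 ± 0.37 with all libraries (limma adjusted p = 0.232) and -1.31 ± 0.25 without KO male 1 (adjusted p = 0.0450), and of 20 alternatives this was the only one that called it. Of the 50-base stretches in its transcripts, 15.4% also occur in transcripts of other genes.

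The 5 further members without overlap between KO and WT once KO male 1 was left out were Mcm4, Mcm6, Cdk1, Birc5 and Nusap1, of which all but Cdk1 are named because of these values. Birc5 (survivin), a subunit of the chromosomal passenger complex, read 0.345, 0.163 and 0.398 FPKM in the WT females, 0.244 and 0.215 in the WT males, 0.0583 and 0.101 in the KO females, 2.25 in KO male 1 and 0.0506 in KO male 2. Its difference was -2.03 ± 0.42 (limma adjusted p = 0.0515) without KO male 1 and -0.66 ± 1.01 with it. KO male 1 was the highest of all 9 libraries for this gene and the other 3 KO libraries were the lowest.

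Cdk1, the kinase that drives entry into mitosis, read 0.178, 0.0646 and 0.128 FPKM in the WT females, 0.0931 and 0.104 in the WT males, 0.0155 and 0.0153 in the KO females, 0.457 in KO male 1 and 0.0609 in KO male 2. The KO females held an estimated 1.5 to 1.6 fragments each, so the difference in females (-2.88 ± 0.87, limma adjusted p = 0.254) rests on very few reads. Averaged over the sexes the difference was -1.79 ± 0.46 (limma adjusted p = 0.0734) without KO male 1 and -1.06 ± 0.64 with it. Its partner cyclin B1, Ccnb1, read 0.223, 0.122 and 0.0713 FPKM in the WT females, 0.333 and 0.131 in the WT males, 0.0195 and 0.0191 in the KO females, 0.556 in KO male 1 and 0.134 in KO male 2. The KO females were the lowest 2 libraries and KO male 2 lay within the WT range, and the difference was -1.67 ± 0.53 (limma adjusted p = 0.107) without KO male 1.

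The helicase subunits Mcm4 and Mcm6 were the more deeply covered of the members without overlap. Mcm4 read 1.91, 1.64 and 1.52 FPKM in the WT females, 1.88 and 2.10 in the WT males, 1.28 and 1.09 in the KO females, 3.82 in KO male 1 and 1.33 in KO male 2, an estimated 90.02 to 205.1 fragments outside KO male 1. Mcm6, whose promoter is shown above with 3 E2F matches (the first 2 overlap), read 2.66, 1.48 and 1.65 FPKM in the WT females, 1.65 and 1.95 in the WT males, 1.24 and 1.17 in the KO females, 5.57 in KO male 1 and 1.11 in KO male 2. Their differences without KO male 1 were -0.54 ± 0.15 and -0.66 ± 0.23 (limma adjusted p = 0.0866 and 0.125). Other subunits of the same helicase overlapped between KO and WT: without KO male 1 the difference was -0.04 ± 0.24 for Mcm2 and -0.18 ± 0.11 for Mcm7. As means of log2(FPKM + 0.1) without KO male 1, KO minus WT was -0.22 for Mcm5 and 0.0026 for Mcm3. Mcm2 read 0.835, 0.733 and 0.634 FPKM in the WT females, 0.536 and 0.801 in the WT males, 0.757 and 0.527 in the KO females, 2.64 in KO male 1 and 0.716 in KO male 2, and the groups overlapped.

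**Figure D4:**
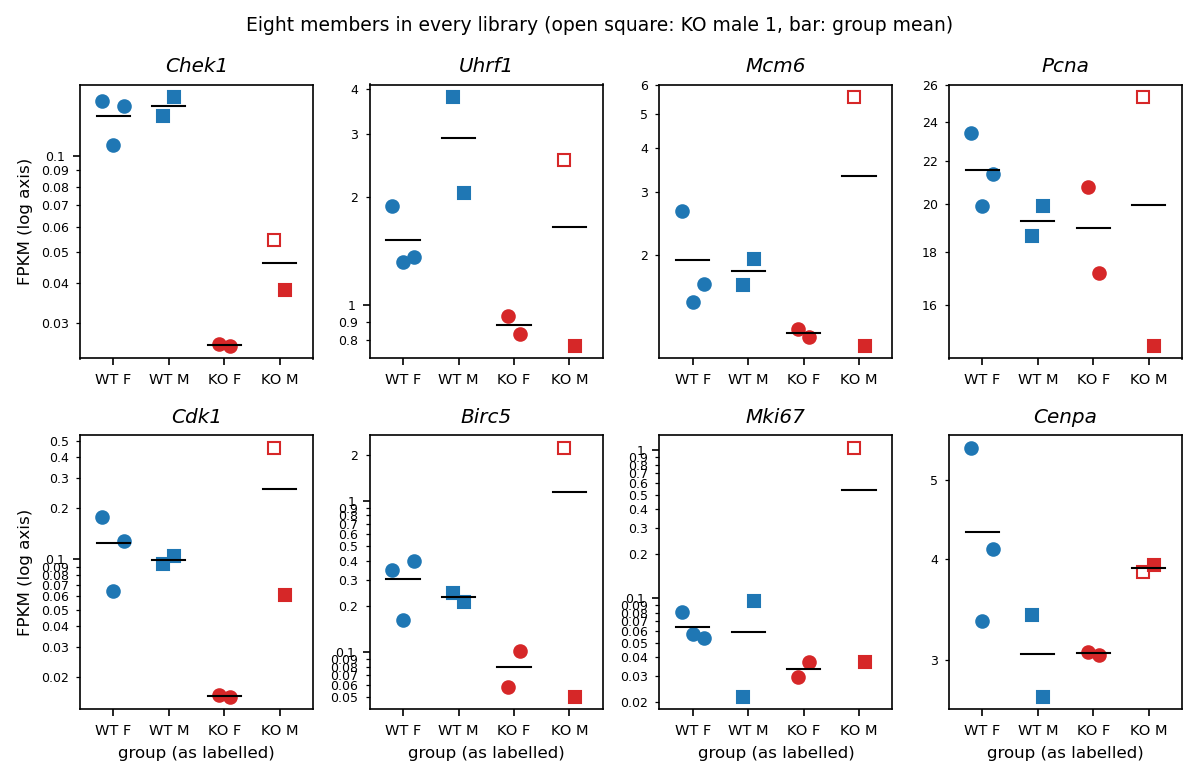
FPKM (log axes) of 8 members in every library by labelled group, circles for females, squares for males, blue for WT and red for KO, with KO male 1 as an open square and a bar at each group mean. Chek1 is lower in all 4 KO libraries than in WT, Uhrf1, Mcm6, Cdk1 and Birc5 are lower in the 3 KO libraries other than KO male 1, and Mki67, Pcna and Cenpa overlap between WT and those libraries.

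The most abundant members differed little. Pcna read 23.4, 19.9 and 21.4 FPKM in the WT females, 18.6 and 19.9 in the WT males, 20.8 and 17.2 in the KO females, 25.3 in KO male 1 and 14.6 in KO male 2, with a difference of -0.10 ± 0.16 (limma adjusted p = 0.825) and of -0.29 ± 0.10 (adjusted p = 0.122) without KO male 1. Rrm1 read 4.38, 4.08 and 4.67 FPKM in the WT females, 5.01 and 5.06 in the WT males, 5.13 and 4.58 in the KO females, 6.25 in KO male 1 and 5.29 in KO male 2. Its difference was above 0 with and without KO male 1, at 0.17 ± 0.10 and 0.11 ± 0.10. Mcm7 read 5.37, 4.84 and 4.42 FPKM in the WT females, 5.05 and 4.69 in the WT males, 4.71 and 4.22 in the KO females, 7.47 in KO male 1 and 4.16 in KO male 2, a KO range around that of WT.

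Several mitosis genes leaned the other way or not at all. Nuf2, a kinetochore subunit that binds spindle microtubules, read 0.0892, 0.0584 and 0.0514 FPKM in the WT females, 0.0160 and 0.0471 in the WT males, 0.0561 and 0.0735 in the KO females, 0.550 in KO male 1 and 0.0916 in KO male 2. Its difference was 1.51 ± 0.63 (limma adjusted p = 0.232), 0.87 ± 0.51 (adjusted p = 0.317) without KO male 1 and 2.16 (adjusted p = 0.0470) without KO male 2, where KO male 1 was the only KO male and was taken to vary like the other groups. Foxm1, the transcription factor of the G2 genes, read 0.190, 0.311 and 0.356 FPKM in the WT females, 0.0768 and 0.193 in the WT males, 0.299 and 0.245 in the KO females, 0.645 in KO male 1 and 0.264 in KO male 2. For both genes the lowest library was WT male 1, and the difference of Foxm1 was 0.54 ± 0.41 without KO male 1.

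Ccna2, cyclin A2 of S phase and G2, read 0.423, 0.510 and 0.406 FPKM in the WT females, 0.339 and 0.399 in the WT males, 0.380 and 0.280 in the KO females, 1.69 in KO male 1 and 0.388 in KO male 2. Cdca3, which takes part in the destruction of the mitotic inhibitor Wee1, read 0.392, 0.198 and 0.523 FPKM in the WT females, 0.570 and 0.344 in the WT males, 0.159 and 0.715 in the KO females, 1.28 in KO male 1 and 0.404 in KO male 2. Both overlapped between KO and WT in the 8 other libraries, with differences of -0.18 ± 0.23 and -0.08 ± 0.58 without KO male 1. Mki67 and Top2a, at -0.61 ± 0.59 and -0.91 ± 0.48 (limma adjusted p = 0.546 and 0.272), turned from a higher to a lower KO mean without KO male 1, with neither sign past the test.

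Without KO male 1, KO and WT stood apart in some lists of cells that could hold dividing cells and overlapped in others. The 10 macrophage genes summed to 51.0 to 65.4 FPKM in the 3 KO libraries and to 81.4 to 192 FPKM in the 5 WT libraries. The 8 fibroblast and progenitor genes summed to 143 to 175 and 184 to 310 FPKM, and the 8 granulocyte and marrow genes to 0.384 to 3.28 and 3.32 to 24.99 FPKM. Not every gene of these lists stood apart. Dcn read 93.9 FPKM in KO male 2 and 92.2 in WT male 1, and S100a8 read 1.28 FPKM in KO male 2 and 0.392 in WT female 2. Of all single genes, 13.5% were lower in these KO libraries than in every WT library. Skeletal muscle genes went the other way, at 2259 to 5234 FPKM in KO and 359 to 1922 FPKM in WT. T cell genes (2.35 to 3.18 and 2.96 to 7.73 FPKM), B cell genes (1.23 to 1.53 and 0.588 to 1.76 FPKM) and endothelial genes (127 to 201 and 163 to 211 FPKM) overlapped. The part of these cells in the members' lower levels was not tested. WT female 1 held most epithelial marker RNA (51.2 FPKM, against 13.4 FPKM in WT female 2 and at most 1.03 FPKM elsewhere), and with WT female 1 also left out 0 members were called, the median over the members was -0.28, and Chek1 stood at -2.09 (limma adjusted p = 0.0772).

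Within each sex, 0 members passed limma in females, where 0.0204% of all genes did, and 0 in males, where 0.0136% did. In females the direction was lower for 33 of 39 members (84.6%), beside 60.2% of all genes, with medians of -0.33 for replication and -0.52 for mitosis genes. At an unadjusted p under 0.05, 4 members were lower and 0 higher in KO females, beside 7.73% and 4.95% of all genes. In males 34 of 39 members were higher in KO (87.2%, beside 39.9% of all genes), among them all 23 mitosis genes, with medians of 0.19 and 1.14, beside -0.08 for all genes. At an unadjusted p under 0.05, 3 were higher and 1 lower in KO males, beside 4.86% and 11.7% of all genes. Without KO male 1 the male medians were -0.44 and 0.08, with 24 of 39 members lower beside 75.4% of all genes. With KO male 2 left out in its place, so that KO male 1 alone stood for the KO males and was taken to vary like the other groups, 11 of 39 members were called in males, all higher in KO, beside 8.72% of all genes. The ordinary linear model called 1 member in each sex at an unadjusted p under 0.01, beside 3.43% of all genes in females and 5.29% in males.

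Between the sexes, with the genotypes averaged, limma called 0 members, where 0.0136% of all genes were called, and 4 were higher and 0 lower in males at an unadjusted p under 0.05, beside 3.36% and 7.09% of all genes. The ordinary linear model called 1 member, beside 3.14% of all genes. Ccne1, cyclin E1, had the lowest p of the members. It read 0.669, 0.779 and 0.879 FPKM in the WT females, 1.62 and 1.18 in the WT males, 0.468 and 0.620 in the KO females and 1.296 and 0.986 in the KO males, so that every male lay above every female. The difference, male less female, was 0.96 ± 0.20 (limma adjusted p = 0.226) and 0.86 ± 0.21 (adjusted p = 0.264) without KO male 1. With KO male 1, 34 of 39 members were higher in males (87.2%, beside 51.5% of all genes), and without it 18 of 39 were (46.2%, beside 38.7%). Without KO male 2, 10 members were called, beside 5.47% of all genes.

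For the difference between the sexes in the KO effect, limma called 0 members, where 0% of all genes were called, the ordinary linear model called 0, beside 1.66%, and at an unadjusted p under 0.05 6 members were higher and 0 lower, beside 1.98% and 5.03% of all genes. The difference, males less females, was above 0 for 37 of 39 members (94.9%, beside 48.8% of all genes) with a median of 1.396, and without KO male 1 for 24 of 39 (61.5%, beside 34.1%) with a median of 0.23. Without KO male 2, 11 members were called, beside 4.89% of all genes. Cenpa, whose protein replaces histone H3 at centromeres, read 5.49, 3.35 and 4.11 FPKM in the WT females, 3.41 and 2.70 in the WT males, 3.07 and 3.04 in the KO females and 3.85 and 3.94 in the KO males. Both KO females lay below all WT females and both KO males above both WT males, with a difference of 0.83 ± 0.32 (limma adjusted p = 0.688) that KO male 1 did not carry, since it was 0.84 ± 0.37 without it. The share of all genes that cross in this way is not given here, so the crossing is not read as particular to Cenpa.

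Other genes of the cycle, from lists made by function, give the setting. With all 9 libraries, 2.17% of all genes were called lower in KO and 1.43% higher. Without KO male 1 most of all genes were lower in KO. The counts and medians of each list, here and in the paragraphs that follow, are to be read beside the all-gene values given above for that fit. Of 46 other replication genes, 43 were tested, of which 1 was called lower and 0 higher with all 9 libraries. That gene, Orc6, a subunit of the origin recognition complex, was the lowest p of the list at -0.49 ± 0.10 (limma adjusted p = 0.0426), and at -0.43 ± 0.10 (adjusted p = 0.0626) without KO male 1, where 35 of 43 were lower, the median was -0.26 and 0 were called. Orc6 read 5.78, 5.43 and 5.11 FPKM in the WT females, 5.47 and 4.98 in the WT males, 3.99 and 4.32 in the KO females and 3.20 and 3.75 in the KO males. Unlike most members it was lowest in KO male 1.

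Of 59 other mitosis genes, 42 were tested, with 0 called with all 9 libraries. Without KO male 1 29 of 42 were lower, the median was -0.20, and 1 was called lower. This was Cks2, the small subunit that binds Cdk1, which read 2.10, 2.08 and 2.12 FPKM in the WT females, 2.38 and 2.56 in the WT males, 0.799 and 0.388 in the KO females, 3.59 in KO male 1 and 0.779 in KO male 2. Like Birc5 and Cdk1, it was highest of all in KO male 1 and below WT in the other 3 KO libraries, with a difference of -1.79 ± 0.25 (limma adjusted p = 0.0313) without KO male 1 and -1.24 ± 0.44 with it. KO male 1 was the highest library for 50 of these 59 genes and for 27 of the 46 other replication genes.

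Among the genes upstream of S phase, KO male 1 was the highest library for 2 of 8 G1 cyclins and kinases and for 7 of 18 cell cycle inhibitors and quiescence genes, beside the 27.8% of all genes given above. Of the G1 list all 8 were lower in KO without KO male 1, with a median of -0.33, and 0 were called with or without it. The lowest p there was that of cyclin D3, Ccnd3, at -0.33 ± 0.09 (limma adjusted p = 0.0759). Of the inhibitors and quiescence genes 17 were tested, 12 were lower, the median was -0.05 and 0 were called, the lowest p being that of Rbl1, the p107 subunit of the DREAM complex, at -0.91 ± 0.20 (limma adjusted p = 0.0570).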

How the data were processed

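Poly(A)-selected RNA was sequenced as paired reads of 50 bases (the labels name both HiSeq2000 and HiSeq2500). The deposited values are FPKM per gene, 1 file per animal, which the authors made with bcl2fastq 1.8.4, TopHat2 2.0.11 and Bowtie on mm10 (GRCm38), per the submitters' processing notes. The sources used here do not say whether counting used strand. No column of another sample was used (0 such columns).

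Groups came from the labelled genotype and sex. Genes above 0 FPKM in every library were tested as log2 FPKM with limma 3.58.1 in R 4.3.3 (moderated, with a mean-variance trend, a mean per group and Benjamini-Hochberg adjustment, threshold 0.05). Since FPKM are not counts, no count model was used. Permutation tests were exact and two-sided, on log2(FPKM + 0.1). Levels and permutations were computed in Python 3.11.15 (scipy 1.17.1, numpy 2.4.6, pandas 2.3.3) and drawn with matplotlib 3.10.9. Fragments were estimated from the spacing of low FPKM values. The fits were tested on simulated data.

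Named with values in every library were members called in any contrast, the 3 of each set with the lowest p and the 3 with the highest mean, and Mki67, Top2a, Cdk1, Ccnb1, Pcna and Mcm2. From other lists, the gene with the lowest p or the highest or lowest level was named. The members and lists were chosen with earlier results of these data known. Alternatives changed the added FPKM, the filter, the centring, the model and the libraries left out. The 3 that combine a change with leaving out KO male 1 were chosen after seeing the data.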

Additional observations from a re-analysis of the deposited data

Results flagged for a closer look

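KO male 1 lay far from the other KO libraries in 6 of 36 sets of WT or KO values checked with Dixon's test on log2(FPKM + 0.1). The test flags about 1 in 20 independent groups by chance, but these sets share the same libraries. The 6 flags are therefore not separate events, and no excess over chance is drawn from them. All 6 flags were of this library. They were Mki67 at 1.04 FPKM, Ccna2 at 1.69 FPKM, Top2a at 1.57 FPKM, Nuf2 at 0.550 FPKM, Uhrf1 at 2.54 FPKM, and the median relative level of the mitosis genes at 1.69 on the log2 scale.

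Cenpa was lower in both KO females than in every WT female and higher in both KO males than in both WT males. The share of all genes with this pattern is not given, and no conclusion about Cenpa is drawn from it. The KO effect in males less that in females was 0.81 on the log2(FPKM + 0.1) scale, and the limma interaction, 0.83 on log2 FPKM, did not pass (adjusted p = 0.688).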

How the results depend on the processing

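The number of members lower in KO (1) became 0 with 1 FPKM added, with a mean of at least 1 FPKM required, without KO male 1 in the unfiltered values with 0.1 FPKM added, and without KO male 1 and WT female 1. Leaving out 1 library gave 0 to 2 lower and 0 to 3 higher, and 0 to 11 called in males, 0 to 10 between the sexes and 0 to 11 for the interaction, the highest (3, 11, 10 and 11) without KO male 2. Without KO male 2, KO male 1 was the only KO male and was taken to vary like the other groups. The share of all genes called higher in KO, sexes averaged, is not given for that fit. The members called higher there are therefore not set beside all genes here, and no conclusion is drawn from them. The ordinary linear model called 1 member in females, 1 in males and 1 between the sexes. The 1 member lower in KO with all libraries was Chek1, at a mean of 0.0920 FPKM over the 9 libraries. Requiring a mean of at least 1 FPKM left Chek1 out before the test, so its call could not be kept there.

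The replication median in males (0.19) ranged from -0.44 to 0.64 with 1 library left out, was -0.42 in the unfiltered values without KO male 1 and -0.44 without KO male 1 and WT female 1. Between the sexes (0.47) it ranged from 0.029 to 0.90 and was -0.019 unfiltered without KO male 1. For the interaction (0.51) it ranged from -0.091 to 0.91 and was, without KO male 1, -0.075 unfiltered, 0.027 median-centred and -0.22 without WT female 1 too. The mitosis median in males (1.14) ranged from 0.077 to 2.57, and was -0.0032 unfiltered without KO male 1 and 0.077 without WT female 1 too. For the interaction (1.93) it ranged from 0.82 to 3.18, was 0.36 with 1 FPKM added and 0.83 with a mean of at least 1 FPKM, and without KO male 1 was 0.37 unfiltered, 0.94 median-centred and 0.64 without WT female 1 too. The cause of these changes was not tested.

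Chek1 kept its direction in all 19 alternatives and its call in 10, at -0.81 with 0.1 FPKM added and -0.14 (limma adjusted p = 0.0585) with 1 FPKM added. Other members changed sign without a call. Without KO male 1, then unfiltered, median-centred and without WT female 1 too, the differences were -0.18, -0.17, -0.0066 and -0.14 for Mcm7, -0.18, -0.15, -0.015 and -0.20 for Ccna2, -0.61, -0.23, -0.44 and -0.52 for Mki67 and -0.91, -0.37, -0.74 and -0.74 for Top2a. Cdca3 was at -0.081, -0.044 unfiltered and -0.034 without WT female 1 too, and Mcm2 at -0.040 and -0.036 unfiltered. Cenpa was at 0.0040 median-centred and, without KO male 1, at 0.12 median-centred and 0.048 without WT female 1 too. Top2a was also at -0.050 with no interaction term. Cdk1 was at 0.017 with 1 FPKM added. With 1 library left out the differences ranged from -0.29 to 0.10 for Pcna, -0.18 to 0.25 for Mcm7, -0.14 to 0.040 for Cenpa, -0.18 to 0.88 for Ccna2, -0.21 to 0.88 for Cdca3, -0.61 to 1.797 for Mki67, -0.91 to 1.16 for Top2a and -0.040 to 0.90 for Mcm2. Of 327 values of the summaries, 287 were counted as unchanged, and of 325 for single members 280. A median was counted so when it moved by less than the spread between libraries. That spread was 0.41 for replication and 0.88 for mitosis genes on the log2 scale. A count of calls had to stay equal or close, and a single member had to keep its direction and call status. The averaged mitosis median was counted as unchanged though it went from 0.33 to -0.37 without KO male 1. No paired analysis was possible because the labels number animals and share no replicate number between groups. The low fragment numbers of the mitosis genes and the few animals limit every comparison.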

Other observations

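Pttg1 (securin) had the highest level of the 59 other mitosis genes. It read 104, 74.6 and 4.00 FPKM in the WT females, 66.7 and 60.01 in the WT males, 65.4 and 65.0 in the KO females and 58.9 and 55.8 in the KO males. WT female 3 stood far below the other 8 libraries, and KO male 1, the highest library for most mitosis genes, lay within their range.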
